A study of Rattus norvegicus with 8 samples.

Results

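AP-1 is a family of transcription factors in which a JUN protein pairs with a second JUN protein or with a FOS, ATF or related partner through a leucine zipper, and the pair binds a short DNA site. The genes described here were chosen by name. They are Fos, Fosb, Fosl1 and Fosl2 of the FOS family, Jun, Junb and Jund of the JUN family, and the relatives Atf3, Batf and Maff. All 10 were found among the 22601 gene names of the deposited count table, and all 10 passed the filter on low counts that left 15763 genes for testing.

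RNA was measured in rat sciatic nerve on day 15 after chronic constriction injury (CCI), in which loose ligatures constrict the nerve, or after a sham operation. There were 4 libraries of polyA RNA in each group. Both groups had been operated on, and an unoperated nerve was not analysed here. The sources used here give no strain, sex or age. They also do not say whether the libraries stem from different animals or from pools, so the p-values rest on library-to-library spread that may be technical in part.

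In Schwann cells of the mouse, Jun is needed after nerve injury for the change from the myelinating state to the repair state. Fos, Fosb and Junb are immediate early genes, whose transcripts rise and decay quickly after a stimulus. Atf3 is silent or low in most resting tissue and is induced by axon injury and other stress, while Batf is best known from lymphocytes and myeloid cells. The neuronal cell bodies of the sciatic nerve lie outside it, so the RNA of the nerve comes from glia, connective tissue, vessels and immune cells, with a small part from axons.

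Total counts ranged from 42541217 to 54559292 per library. The sciatic nerve label was matched by 10 markers of myelinating Schwann cells, which summed to between 94401 and 111127 CPM (read counts scaled to library size, with TMM, edgeR's correction for library makeup) in sham libraries. They summed to between 7015 and 10741 CPM in CCI libraries, with all 10 lower in CCI and none at 0 in any library. Summed over 10 macrophage markers, the level was 342 to 485 CPM in sham and 1839 to 2154 CPM in CCI libraries, with all 10 higher and again none at 0. In whole tissue, fewer cells of a type and less RNA per cell cannot be told apart. The summed level of 12 skeletal muscle markers was 6935 CPM in CCI 2, between 153 and 1453 CPM in the other CCI libraries, 1139 CPM in sham 2 and between 97.9 and 131 CPM in the other sham libraries. None of the 12 was at 0, and 1 of 11 tested was called higher. Of the other marker lists, perineurial cells had 6 of 6 tested genes lower (Lypd2 was at 0 in 5 libraries), endothelial cells 6 of 8 higher and 1 lower, fibroblasts 2 of 8 higher and 1 lower, and adipocytes 3 of 6 higher. Results are therefore also given without these libraries where a value moved.

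Of the 10 genes, 8 were higher in CCI, 1 was lower (Maff) and 1 did not pass (Fosl2), at an adjusted p under 0.05 in edgeR's quasi-likelihood test with Benjamini-Hochberg adjustment over all genes tested. Among all genes tested 68.4% were called in either direction and 36.2% were called higher. In TMM-scaled CPM the CCI and sham libraries did not overlap for 9 of the 10 genes, against 64.8% of all genes tested. The median log2 fold change was 1.32 over the 10 genes and 0.05 over all genes tested. With libraries scaled by their totals only, the median of all tested genes moved to 0.27 and that of the 10 genes to 1.54, and the calls of the 10 genes were again 8 higher and 1 lower. That scaling also moved the calls over all genes from 5708 higher and 5080 lower to 7433 higher and 3682 lower. The numbers called without both CCI 2 and sham 2 were likewise 8 and 1.

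**Figure D1:**
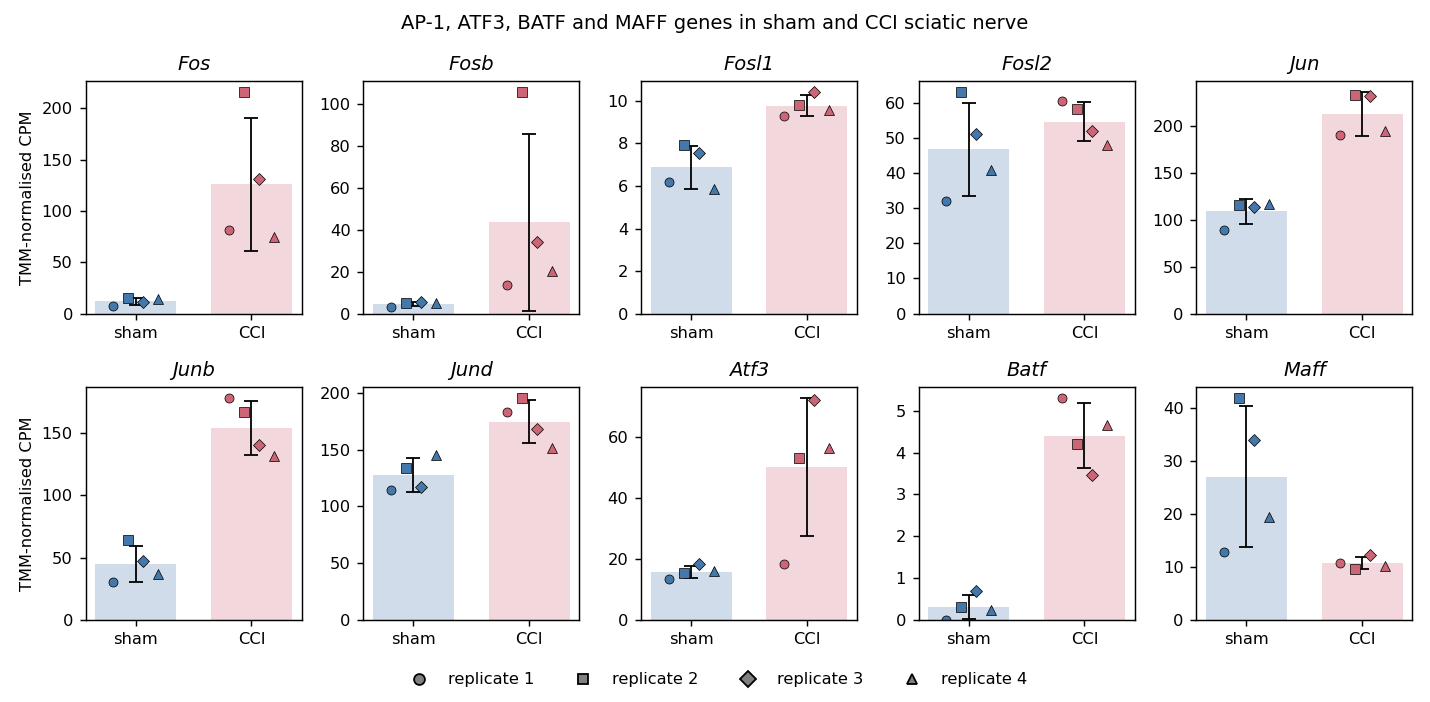
TMM-normalised CPM of each gene (y axes, linear, from 0) in 4 sham and 4 CCI libraries; bars are group means, error bars are SD and each symbol is 1 library. In Fos the 4 CCI libraries lie between 75.0 and 216 CPM, all above the sham libraries, while for Fosl2 sham 2 lies above every CCI library.

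Promoter sequences were available from RefSeq (build GRCr8) for 7 of the 10 genes, namely Fosb, Fosl1, Fosl2, Junb, Jund, Batf and Maff. They were searched on both strands for the AP-1 site TGANTCA, known as the TRE, and for the ATF and CREB site TGACGTCA, known as the CRE. Neither motif contains the other. No TRE was found in the 7 windows, against 7.33% of all 33469 promoters in the table. A full CRE was found in Jund and in Maff, against 1.83% of all promoters. These windows are shown because Jund rose and Maff fell in the same nerves, so a full CRE was present in promoters of genes that went opposite ways. Each runs from 250 bases before to 50 bases after the annotated start, and capitals mark the CRE.
Jund, chr16:18769722-18770021, minus strand: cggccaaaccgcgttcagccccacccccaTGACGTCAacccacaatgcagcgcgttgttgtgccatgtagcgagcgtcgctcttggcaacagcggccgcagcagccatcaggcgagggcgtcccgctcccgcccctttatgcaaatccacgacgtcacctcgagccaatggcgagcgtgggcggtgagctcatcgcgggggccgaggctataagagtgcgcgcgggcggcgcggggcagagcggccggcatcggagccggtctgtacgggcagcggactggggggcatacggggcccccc
Maff, chr7:112792537-112792836, plus strand: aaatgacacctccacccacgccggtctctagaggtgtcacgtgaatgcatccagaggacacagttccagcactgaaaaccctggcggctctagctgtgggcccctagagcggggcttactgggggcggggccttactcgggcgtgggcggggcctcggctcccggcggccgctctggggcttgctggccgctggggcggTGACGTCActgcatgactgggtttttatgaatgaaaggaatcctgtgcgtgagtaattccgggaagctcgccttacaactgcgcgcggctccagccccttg
The first base of the CRE lay at position -221 from the annotated start in Jund and at position -51 in Maff. A match is a description of the letters, and binding was not measured.

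The JUN family supplies a partner for most AP-1 pairs, and all 3 of its genes rose. Jun, which encodes c-Jun, had 89.4, 116, 113 and 117 CPM in sham 1 to 4 and 190, 233, 232 and 194 CPM in CCI 1 to 4. Every CCI library stood well above every sham library, and sham 1 was the lowest of all. The log2 fold change was 0.96 (SE 0.11), with 109 ± 13.2 CPM in sham and 213 ± 23.5 CPM in CCI (SD, n = 4; edgeR adjusted p = 1.28e-05).

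Junb, a JUN protein that activates less strongly than c-Jun at many sites, had 30.8, 64.3, 47.0 and 36.8 CPM in sham 1 to 4 and 178, 167, 140 and 132 CPM in CCI 1 to 4. The lowest CCI library was above the highest sham library, and the sham libraries differed among themselves by a factor of 2.09 from lowest to highest. Among 13157 genes with at least 1 CPM in each group, 5.28% had a wider range in sham. The log2 fold change of Junb was 1.79 (SE 0.22; edgeR adjusted p = 0.000121).

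Jund, the JUN gene that is expressed most steadily in resting cells, had 114, 134, 117 and 145 CPM in sham 1 to 4 and 183, 195, 168 and 151 CPM in CCI 1 to 4. The groups did not overlap, but CCI 4 lay only just above sham 4. Its log2 fold change was 0.45 (SE 0.10; edgeR adjusted p = 0.00209), and it kept its sign and its call in each of 18 alternative settings, with values from 0.37 to 0.68.

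Levels of different genes were compared only per length, in the deposited FPKM (fragments per kilobase of gene length, scaled to sequencing depth). These FPKM carry no correction for library makeup, which leaves shares within a library unaffected but not sums. TMM factors lay between 0.91 and 0.94 in sham and between 1.06 and 1.10 in CCI libraries. FPKM sums therefore differ more between the groups than TMM-scaled sums would. The FPKM of Jun, Junb and Jund summed to between 104 and 143 in sham and between 246 and 306 in CCI libraries. Jund made up 56.0 ± 4.22% of this sum in sham and 40.1 ± 0.573% in CCI (SD, n = 4), and its share was lower in every CCI library than in any sham library. Junb made up 18.2 ± 4.32% in sham and 33.3 ± 2.54% in CCI, with a higher share in every CCI library. The share of Jun was 25.9 ± 1.32% in sham and 26.6 ± 2.90% in CCI, and the groups overlapped. These shares are descriptions over chosen genes and were not tested.

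**Figure D2:**
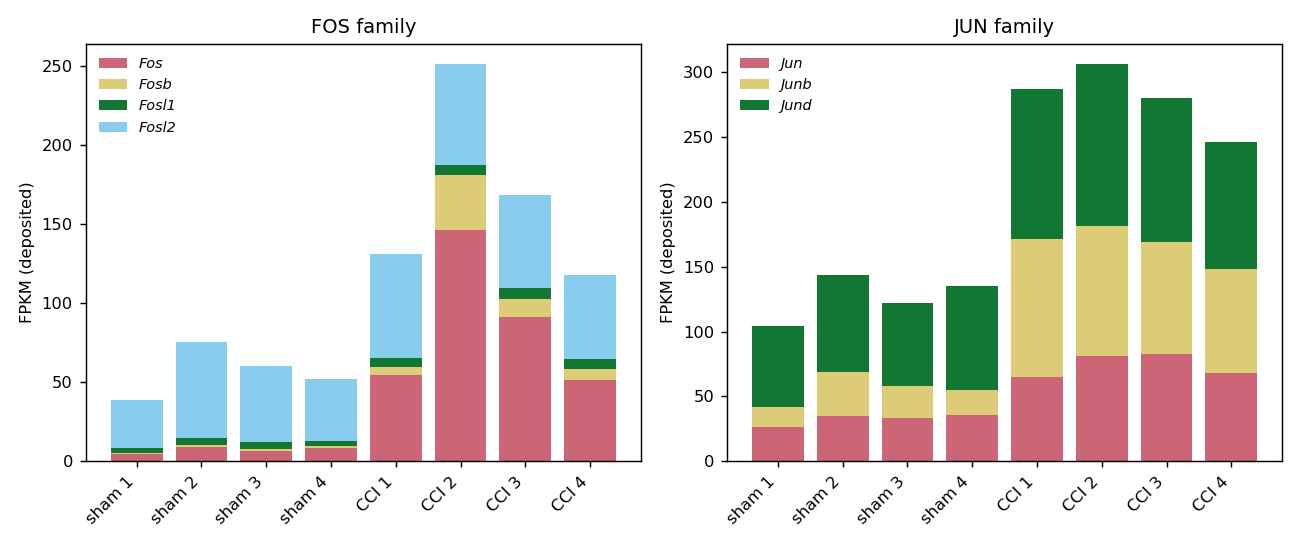
Deposited FPKM of the FOS family (left) and the JUN family (right), stacked by gene, in each library (x axis); the y axes are linear and start at 0. The FOS sum lies between 38.7 and 75.3 FPKM in sham and between 118 and 251 FPKM in CCI libraries, and the share of Fosl2 is smaller in CCI. The FPKM carry no correction for library makeup.

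In the FOS family, whose proteins bind DNA only when paired with a JUN or related partner, Fos and Fosb rose most. Fos, which encodes c-Fos, had 7.73, 15.4, 11.3 and 13.9 CPM in sham 1 to 4 and 82.0, 216, 131 and 75.0 CPM in CCI 1 to 4. All CCI libraries were far above all sham libraries, and CCI 2 was the highest. The log2 fold change was 3.38 (SE 0.43; edgeR adjusted p = 0.000272) and 2.97 without CCI 2 (edgeR adjusted p = 6.64e-05).

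Fosb, the FOS gene that also yields a long-lived truncated protein by splicing, had 2.95, 5.04, 5.34 and 4.94 CPM in sham 1 to 4 and 13.8, 106, 34.2 and 20.5 CPM in CCI 1 to 4. The groups did not overlap, but the CCI libraries differed by a factor of 7.66 from CCI 1 to CCI 2. Only 0.821% of the genes with at least 1 CPM in each group had a wider range in CCI. The log2 fold change was 3.25 (SE 0.73; edgeR adjusted p = 0.00631) and fell to 2.30 without CCI 2 (edgeR adjusted p = 0.000313). CCI 2 was also the CCI library with the highest summed muscle markers, followed by CCI 3, CCI 4 and CCI 1 in the order in which they stood for Fosb. That order was not particular to Fosb, since the immediate early genes Egr1, Egr3 and Nr4a1, described below, had it too. In sham libraries the orders differed, with muscle markers highest in sham 2 and Fosb highest in sham 3. Summed muscle markers were at 1044 CPM in CCI 4 and 1139 CPM in sham 2, where Fosb was at 20.5 and 5.04 CPM. Without both CCI 2 and sham 2 the log2 fold change of Fosb was 2.37 (edgeR adjusted p = 0.00150), but muscle markers still differed between the groups there, with 4 called higher and a median log2 fold change of 4.47. The part of muscle RNA in the levels of Fosb, Egr1, Egr3 and Nr4a1 was not tested.

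Fosl1, which encodes Fra-1, had 6.19, 7.91, 7.55 and 5.87 CPM in sham 1 to 4 and 9.29, 9.83, 10.4 and 9.59 CPM in CCI 1 to 4. The CCI libraries were close to each other and all above the sham libraries. The difference was small, with a log2 fold change of 0.51 (SE 0.13; edgeR adjusted p = 0.00431).

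Fosl2, which encodes Fra-2, had 32.1, 63.0, 50.9 and 40.8 CPM in sham 1 to 4 and 60.3, 58.0, 51.9 and 48.0 CPM in CCI 1 to 4. The groups overlapped, with sham 2 above every CCI library. The log2 fold change was 0.22 (SE 0.19; edgeR adjusted p = 0.307). Without sham 2 it was 0.40 and passed (edgeR adjusted p = 0.0402), and limma on the deposited FPKM also passed, with 0.48 on the log2(FPKM + 1) scale (adjusted p = 0.0419).

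Per length, Fosl2 was the most abundant FOS gene in sham nerve, with 78.1 ± 2.26% of the summed FPKM of the FOS family (SD, n = 4). In CCI its share was 38.9 ± 11.05%, ranging from 25.4% in CCI 2 to 50.1% in CCI 1. Fos went the other way, from 12.5 ± 2.18% in sham to 49.4 ± 7.96% in CCI, and its lowest share in CCI, 41.9% in CCI 1, was above its highest in sham, 15.7% in sham 4. Fosb held 2.33 ± 0.363% in sham and 7.52 ± 4.51% in CCI. The share of Fosl1 was 6.99 ± 1.26% in sham and 4.12 ± 1.17% in CCI.

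**Figure D3:**
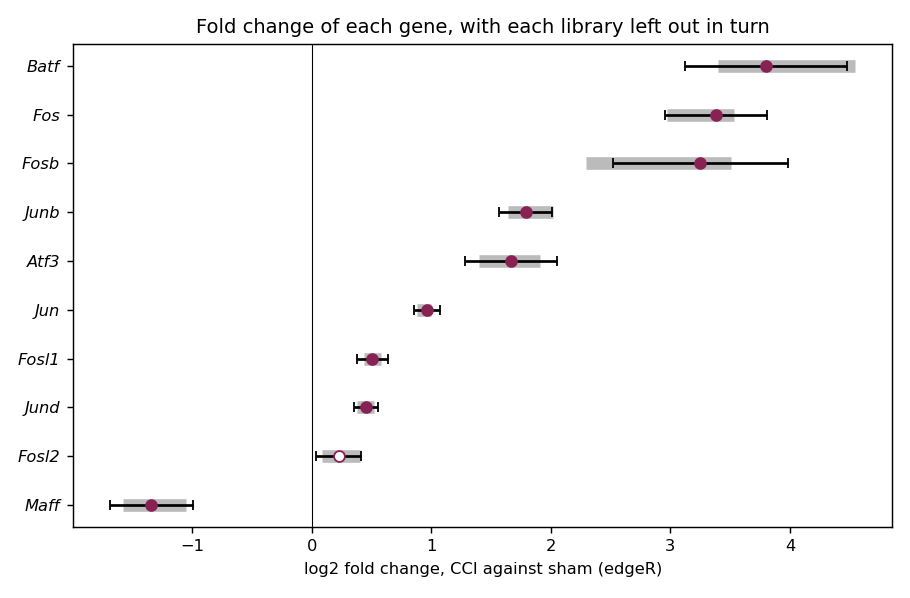
Log2 fold change of each gene, CCI against sham, from edgeR (x axis); points with black error bars are the estimate and its SE, filled where the adjusted p was under 0.05, and grey bars span the values with each library left out in turn. The grey bar of Fosb reaches down to 2.30, and every bar stays on its side of 0.

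Atf3, a stress-induced partner of JUN that as a pair with itself can repress transcription, had 13.4, 15.3, 18.3 and 16.2 CPM in sham 1 to 4 and 18.5, 53.2, 72.4 and 56.7 CPM in CCI 1 to 4. CCI 2, 3 and 4 stood far above the sham libraries, while CCI 1 was just above sham 3. Within CCI the highest library was 3.91 times the lowest, and 1.49% of the genes with at least 1 CPM in each group had a wider range. Atf3 had a log2 fold change of 1.67 (SE 0.38; edgeR adjusted p = 0.00549) and ranged from 1.40 without CCI 3 to 1.91 without CCI 1. In the RefSeq annotation Atf3 overlaps Garin4, listed in the files as Fam71a, which had between 0 and 5 counts per library.

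Batf, which pairs with JUN proteins and, in lymphocytes and dendritic cells, acts together with IRF4 or IRF8, had 0, 0.306, 0.697 and 0.243 CPM in sham 1 to 4 and 5.30, 4.21, 3.46 and 4.66 CPM in CCI 1 to 4. The sham values rested on 0, 13, 30 and 11 counts, and the 0 in sham 1 allows a level of up to 0.0771 CPM, which equals 3 counts there and covers counting error only. Every CCI library was several times above every sham library. For Batf the log2 fold change was 3.80 (SE 0.68; edgeR adjusted p = 0.000770) and 4.55 without sham 3 (edgeR adjusted p = 0.000425). Markers of lymphocytes moved in the same direction, with a sum over 10 genes of 65.0 to 99.5 CPM in sham and 253 to 344 CPM in CCI, and 6 of 9 tested markers higher. In sham 2 and sham 3 the B cell marker Ms4a1 had no counts. Neutrophil markers, of which 7 of 8 were higher, summed to 2.61 to 6.31 CPM in sham libraries and to 88.7 to 231 CPM in CCI libraries, with Elane at 0 in sham 1. Between 82.4% and 98.5% of this lymphocyte sum was Cd4, which macrophages of the rat express as well. The 9 other lymphocyte markers summed to between 1.39 and 3.33 CPM in sham libraries, and to 60.7, 37.3, 36.5 and 39.4 CPM in CCI 1 to 4. Batf and this sum without Cd4 had the same order of CCI libraries, CCI 1, 4, 2 and 3, but CCI 2, 3 and 4 lay close together in that sum. With Cd4 included, the sum ran CCI 1, 4, 3 and 2. The sham libraries did not share an order, since the sum without Cd4 was highest in sham 4 and lowest in sham 3, where Batf was highest. The part of lymphocytes or neutrophils in the level of Batf was not tested. Batf and Fosb each overlap a long noncoding RNA in the RefSeq annotation, and since the strand setting of the counting is not given, reads of overlapping genes cannot be told apart.

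Maff, a small MAF protein without an activation domain of its own that pairs with CNC factors such as NRF2 and BACH1, was the gene that fell. It had 12.7, 41.8, 34.0 and 19.4 CPM in sham 1 to 4 and 10.8, 9.54, 12.2 and 10.1 CPM in CCI 1 to 4. The CCI libraries were close together, whereas the sham libraries spread over a factor of 3.28, and sham 1 was just above CCI 3. Only 1.69% of the genes with at least 1 CPM in each group had a wider range in sham. Its log2 fold change was -1.34 (SE 0.35; edgeR adjusted p = 0.00836), ranging from -1.58 without sham 1 to -1.05 without sham 2.

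The order of the libraries within a group was partly shared between genes. Sham 1 was the lowest sham library for 9 of the 10 genes, the exception being Fosl1, which was lowest in sham 4. Sham 2 was the highest for 5 of them, namely Fos, Fosl1, Fosl2, Junb and Maff. The order sham 2, 3, 4, 1 was shared by Fosl2, Junb and Maff. Among CCI libraries, CCI 2 was the highest for Fos, Fosb, Jun and Jund, CCI 3 for Fosl1, Atf3 and Maff, and CCI 1 for Fosl2, Junb and Batf.

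**Figure D4:**
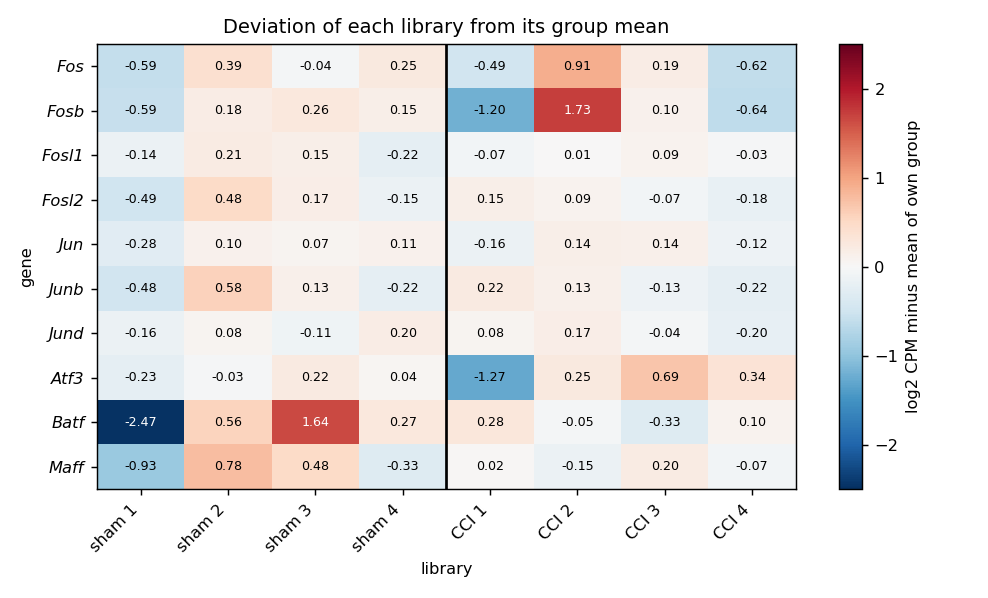
Log2 CPM of each gene (rows) in each library (columns) minus the mean of the library's own group, printed in each cell and coloured from blue (below the mean) to red (above). Sham 1 is below its group mean for every gene, Fosb reaches 1.73 in CCI 2, and Atf3 is at -1.27 in CCI 1.

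Other immediate early genes were compared because Fos, Fosb and Junb belong to that class. Genes of this class also respond to the handling of tissue. The sources used here give no time from death to freezing, and the part of handling in these levels was not tested. Of 21 tested, 9 rose (42.9%), 5 fell and 7 did not pass, with a median log2 fold change of 0.28. Over all genes tested 36.2% were called higher. Egr1, a zinc finger factor induced together with Fos in many cells, had 10.9, 27.4, 19.4 and 20.4 CPM in sham 1 to 4 and 43.9, 120, 74.9 and 55.8 CPM in CCI 1 to 4 (log2 fold change 1.91, SE 0.39; edgeR adjusted p = 0.00340). As with Fos, CCI 2 was the highest CCI library and sham 1 the lowest sham library. Egr3, a relative of Egr1, was also highest in CCI 2 and rose by 1.78 (SE 0.32; edgeR adjusted p = 0.000782). Ier5 had the smallest p of the list, with 31.2 ± 2.85 CPM in sham and 71.9 ± 2.85 CPM in CCI (SD, n = 4; edgeR adjusted p = 1.94e-07).

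The 5 immediate early genes that fell were Nr4a1, Nr4a2, Arc, Gadd45b and Egr2. Nr4a2, an orphan nuclear receptor, had the smallest p among them, with 75.6 ± 12.9 CPM in sham and 26.2 ± 4.87 CPM in CCI (SD, n = 4; edgeR adjusted p = 1.34e-05). Nr4a1, its relative, had 137, 162, 156 and 132 CPM in sham 1 to 4 and 37.8, 110, 64.2 and 51.2 CPM in CCI 1 to 4 (edgeR adjusted p = 0.0113). CCI 2 was again the highest CCI library, but below every sham library. For Arc, an activity-induced gene of neurons, the log2 fold change was -2.23 (SE 0.33; adjusted p = 0.000257 in edgeR). Egr2, which also drives myelin genes in Schwann cells, fell by 1.82 (SE 0.22; edgeR adjusted p = 9.38e-05). Zfp36, Btg2 and Klf6, also immediate early genes, and the phosphatase gene Dusp1 had log2 fold changes between -0.11 and 0.12, with edgeR adjusted p from 0.367 to 0.989.

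Other leucine zipper genes outside the 10 went both ways, with 10 of 24 higher, 9 lower and a median of 0.03. The share higher was 41.7%, near the 36.2% of all genes tested. Batf3, a relative of Batf needed for some dendritic cells, rose by 2.46 (SE 0.23; edgeR adjusted p = 4.17e-06). Atf5 was at 133 ± 18.5 CPM in sham libraries and at 42.7 ± 3.43 CPM in CCI libraries (SD, n = 4; edgeR adjusted p = 1.73e-07). Atf2, Atf4 and Atf7, which can pair with JUN proteins, were among those that fell, as was Mafk, the small MAF relative of Maff (log2 fold change -0.80, SE 0.14; edgeR adjusted p = 0.000646). Leaving out both CCI 2 and sham 2 left 5 of these relatives higher, and leaving out CCI 2 left 8, while 9 were lower in either case.

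AP-1 activity also depends on MAP kinases, which phosphorylate JUN and raise transcription of FOS genes, but transcript levels say nothing of phosphorylation. Of 25 kinase and scaffold genes tested, 13 fell and 9 rose, with a median of -0.27. The share that rose was 36.0%, near the 36.2% of all genes tested. The 13 of 25 that fell were a larger share than the 5080 of 15763 among all genes tested. Mapk8ip1, a scaffold protein of the JNK pathway, went from 895 ± 101 to 106 ± 7.58 CPM (SD, n = 4), a log2 fold change of -3.08 (SE 0.10; edgeR adjusted p = 4.52e-09). Mapk3, which encodes ERK1, was at 629 ± 58.7 CPM in sham libraries and at 244 ± 18.1 CPM in CCI libraries (edgeR adjusted p = 1.96e-07). Of the JNK genes themselves, Mapk8 had a log2 fold change of -0.18 (SE 0.07; edgeR adjusted p = 0.0336) that was 0.05 when scaled by library totals (edgeR adjusted p = 0.575). Its call was also lost without sham 2 (0.0663), sham 3 (0.0663) or sham 4 (0.0618). Mapk9 did not pass (0.05, SE 0.07; edgeR adjusted p = 0.515). With library totals only, 11 of the 25 were higher, 9 were lower and the median was -0.04.

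The dual-specificity phosphatases, which switch MAP kinases off, included 4 higher and 1 lower of 9 tested, with a median of 0.23. The share higher was 44.4%, against 36.2% of all genes tested. Dusp5 went from 1.36 ± 0.349 to 11.6 ± 2.02 CPM (SD, n = 4; edgeR adjusted p = 3.06e-07). Dusp6, which acts mainly on ERK, went from 34.5 ± 5.73 to 111 ± 12.8 CPM (SD, n = 4; edgeR adjusted p = 7.47e-07). Dusp2 and Dusp10 were the other genes that rose, and Dusp8 was the gene that fell. Of 11 genes for ubiquitin ligases and binding partners of AP-1, 3 rose and 5 fell, with a median of -0.16. The share that rose was 27.3%, against 36.2% of all genes tested. Irf8, a partner of BATF that is abundant in macrophages, rose by 3.92 (SE 0.12; edgeR adjusted p = 4.57e-09), while Irf4 was at 16.7 ± 3.32 CPM in sham libraries and at 9.78 ± 1.35 CPM in CCI libraries (SD, n = 4; edgeR adjusted p = 0.00105). Tcf4 fell by 0.86 (SE 0.06; edgeR adjusted p = 2.32e-07). With library totals only, 5 of the 11 were higher, 3 were lower and the median was 0.06.

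**Figure D5:**
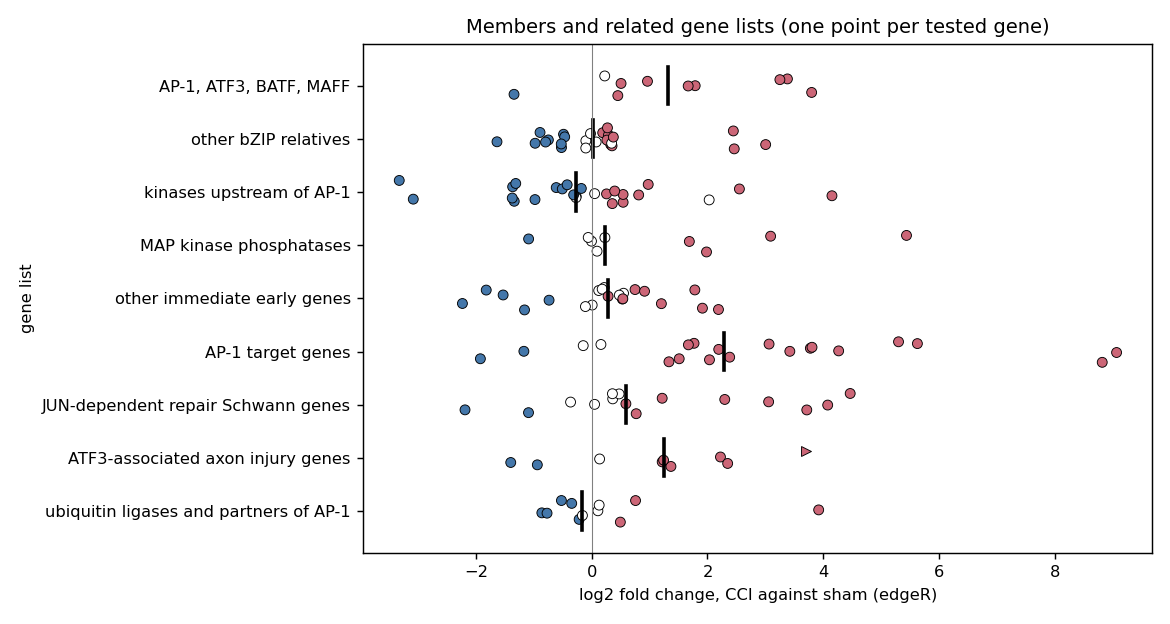
Log2 fold change, CCI against sham (x axis, edgeR), of each tested gene in 9 gene lists (rows); red points were called higher at an adjusted p under 0.05, blue points lower, and white points did not pass, and black bars are list medians. The triangle is Sox11, which had no counts in sham and is drawn at its lower bound of 3.69; the median of AP-1 target genes lies at 2.29. The lists were made with earlier results of these data known.

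Genes that textbooks list as targets of AP-1 were mostly higher, with 16 of 20 higher, 2 lower and a median of 2.29. The share higher was 80%, against 36.2% of all genes tested. The list was made with earlier results of these data known, so this share is not independent of them. Ccl2, a chemokine that attracts monocytes, had 3.37, 4.61, 4.37 and 4.10 CPM in sham 1 to 4 and 72.5, 57.1, 55.3 and 45.5 CPM in CCI 1 to 4 (edgeR adjusted p = 1.98e-08). The metalloproteinase Mmp9 had between 0.0697 and 0.331 CPM in sham and between 78.1 and 117 CPM in CCI libraries (edgeR adjusted p = 2.06e-08). The 2 lower genes were Hbegf, an EGF receptor ligand, and Spp1, osteopontin, whose groups overlapped and whose call was lost without CCI 2 (edgeR adjusted p = 0.0538), CCI 4 (0.0632), sham 2 (0.0619) or sham 3 (0.0547). Ccl2 and Mmp9 are also expressed by macrophages, whose 10 markers all rose. Of the neutrophil markers 7 of 8 were higher as well. The part of either cell type in the levels of the target genes was not tested.

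Of 15 genes reported to depend on Jun in repair Schwann cells of the mouse, 8 (53.3%) were higher and 2 lower. Their median was 0.59. Among all genes tested 36.2% were called higher and 68.4% in either direction. Runx2, a transcription factor, had 9.04, 8.52, 11.01 and 11.7 CPM in sham 1 to 4 and 61.6, 80.5, 101 and 92.3 CPM in CCI 1 to 4 (edgeR adjusted p = 2.08e-07). Lif, a cytokine of the gp130 group, was at 2.81 ± 0.752 CPM in sham libraries and at 13.8 ± 2.93 CPM in CCI libraries (SD, n = 4; edgeR adjusted p = 3.73e-06). The neurotrophic factor Gdnf rose by 4.08 (SE 0.68; edgeR adjusted p = 0.000693) and the neurotrophin receptor Ngfr by 3.72 (SE 0.33; 2.67e-05). The lower genes were L1cam, an adhesion molecule, and Olig1, and those not past the threshold were Shh, Artn, Ncam1, Cdh2 and Gfap. With library totals only, 12 were higher and 2 lower. Among the higher genes, Sox2 and Clcf1 had overlapping groups. Sox2 (edgeR adjusted p = 0.0454) lost its call with DESeq2 size factors (0.0522), without CCI 3 (0.124) or CCI 4 (0.119), and without any single sham library. Clcf1 (edgeR adjusted p = 0.0247) lost its call without CCI 3 (0.0964), CCI 4 (0.0604), sham 1 (0.0602), sham 3 (0.0525) or sham 4 (0.0595).

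Of 9 tested genes listed with Atf3 for axon injury or for neurons, 6 (66.7%) were higher and 2 lower, with a median of 1.24. Over all genes tested 36.2% were called higher. Neuronal cell bodies lie outside the nerve, and the cell source of these transcripts was not tested. Nefl, a neurofilament subunit, was at 5.99 ± 1.93 CPM in sham libraries and at 30.5 ± 10.2 CPM in CCI libraries (SD, n = 4; edgeR adjusted p = 0.000188). Stmn2, a tubulin-binding protein of growing axons, was at 12.3 ± 0.960 CPM in sham libraries and at 4.65 ± 0.830 CPM in CCI libraries (edgeR adjusted p = 7.79e-06). Prph, an intermediate filament gene of peripheral neurons, was the other gene that fell. Sox11 had 0 counts in all sham libraries and 194 in the CCI libraries together, and was at least 12.95-fold higher in CCI when sham is set at 3 counts per library. The median with Sox11 at that bound was again 1.24.

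The genes whose profile over the 8 libraries was most like that of Jun, Fos or Atf3 were found by the root mean square difference of log2 CPM, each gene centred on its own mean, among 11655 other genes of at least 5 CPM on average. The nearest to Jun were Sh3rf1 (0.04), Lrrfip1 (0.08) and Fhdc1 (0.08). Sh3rf1 had 14.0, 19.6, 18.3 and 19.2 CPM in sham 1 to 4 and 32.1, 37.5, 37.9 and 33.7 CPM in CCI 1 to 4, and was lowest in sham 1, as Jun was. The nearest to Fos were farther away, at 0.35 for Vash2, 0.37 for Gcgr and 0.44 for Ptprn, and all 3 were highest in CCI 2 or CCI 3.

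The nearest to Atf3 were the phosphatase gene Dusp10 (0.21), Olr1584 (0.27) and Tmc7 (0.28). Dusp10 had 8.20, 8.69, 9.83 and 8.31 CPM in sham 1 to 4 and 14.9, 33.1, 50.7 and 39.9 CPM in CCI 1 to 4. Its order of CCI libraries, CCI 3, 4, 2 and 1, was that of Atf3, and sham 3 was the highest sham library for both. The nearest genes were picked for likeness over the same 8 libraries, so a shared order of libraries follows in part from that choice. These distances describe 8 libraries and were not tested.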

How the data were processed

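The deposited counts are whole numbers per gene name and library. The submitters' processing notes list HISAT2, HTSeq, fastp, DESeq2 and R 3.2.0 with no roles, and the build Rnor_6.0. Annotation and strand setting were not given in the sources used here. The FPKM values deposited by the authors equalled count over library total and a fixed gene length in all 18774 genes checked (tolerance 0.001), so they carry no correction for library makeup.

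Counts were tested with edgeR 4.0.16 in R 4.3.3 (quasi-likelihood, robust, filterByExpr, TMM, no covariates), CCI against sham, with Benjamini-Hochberg adjustment over 15763 genes and a threshold of 0.05. The procedure was checked on simulated counts. SE is the absolute log2 fold change over the square root of F. Alternatives used DESeq2 1.42.0, limma 3.58.1 on log2(FPKM + 1) or log2(FPKM + 0.1), other scalings and filters, a replicate block and left-out libraries. Within groups, chi-square over degrees of freedom was 27.5 to 74.5 for pairs of libraries, above sampling noise, so none was merged.

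The members, the 18 gene lists and the choice to leave out CCI 2 with sham 2 were made with earlier results of these data known. Named were all members, the 2 genes of smallest p in each related list and the 3 nearest profiles to Jun, Fos and Atf3; any further gene was named with its values in view. A gene that this rule names is not reported here. Where a listed symbol was missing from the files, its synonyms were matched through RefSeq names.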

Additional observations from a re-analysis of the deposited data

Results flagged for a closer look

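In 2 of 20 groups of 4 libraries (10 genes in 2 conditions), 1 library stood far from the other 3, and chance alone flags about 1 in 20 such groups. Jun in sham 1 was at 89.4 CPM, against 113 to 117 CPM in the other sham libraries. Fosb in sham 1 was at 2.95 CPM, against 4.94 to 5.34 CPM in the other sham libraries. Without sham 1 the log2 fold change of Jun was 0.88, and that gene passed in every setting tried.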

How the results depend on the processing

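Over 18 alternative settings, 176 fold changes of the 10 genes kept their direction and their side of the threshold, and 3 did not, all of them Fosl2, which passed without sham 2 (0.40) and in limma on log2(FPKM + 1) (0.48) or log2(FPKM + 0.1) (0.49). The number of the 10 genes called was 9 in the report and 8 when genes had to reach 5 CPM in 4 libraries, which removes Batf from the test. Leaving out 1 library gave between 9 and 10 of them, and between 10217 and 10540 genes in all against 10788. With the replicate block 9 of the 10 and 10505 genes in all were called. In the labels, libraries with the same number shared only that number. Correlations of their deviations were 0.12, 0.29, -0.02 and 0.03 for numbers 1 to 4, and not every library correlated best with its own number. CCI 2 and sham 2, the pair at 0.29, also each had the highest summed muscle markers of its group. The share of calls that were higher was 52.9% with TMM, 66.9% with library totals only and 66.8% in either limma fit on FPKM. Among 133 tested genes of the related lists, 47 changed call or sign in at least 1 of the 18 settings, 19 of them in sign. Depth limits Batf in sham nerve, where 0 to 30 counts lie behind each value.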
